A study of Homo sapiens with 12 samples.

Results

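SPOP F102C was set against wild-type SPOP in the LNCaP-Abl prostate cancer line, using 2 arrays of cells that expressed the mutant and 3 arrays of cells that expressed the wild-type protein. These 5 arrays are 5 of the 12 in the series and were chosen by their titles. The members described are the 12227 named genes detected at p under 0.05 on at least 2 of the 12 arrays. The study cloned SPOP mutants found in human prostate tumours and measured RNA on Illumina bead arrays after inducing the constructs. The groups used are SPOP F102C (n = 2), SPOP F133V (n = 2), SPOP F133L (n = 2), WT SPOP (n = 3) and control vector (n = 3). All of them, control vector included, were transfected, received doxycycline as inducer and grew in RPMI1640 with charcoal-stripped serum, which is depleted of steroids. The design text calls the arrays of a group biological replicates without saying whether they came from separate transfections, so the p-values reflect array-to-array spread only, with a precision limited by so few arrays. LNCaP-Abl is an androgen-independent derivative of the LNCaP line, obtained by long culture without androgen, and every array holds this line alone.

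SPOP is the substrate-binding adaptor of a CUL3 ubiquitin ligase. Its MATH domain holds the substrate while its BTB domain binds CUL3, and the substrate is then marked for degradation by the proteasome. The phenylalanine that F102C replaces with cysteine lies in the substrate-binding cleft of the MATH domain, as does the one changed in F133V and F133L, and both positions are recurrently mutated in prostate cancer. Known substrates include nuclear receptor coactivators, the cofactor TRIM24 and bromodomain proteins. The labels describe no change to the cells' own SPOP genes, so the constructs are read here on top of endogenous SPOP.

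The 5 arrays were of like quality. The F102C arrays had 18482 and 19543 probes detected and median intensities of 115.4 and 122.7, against 18906 to 19175 probes and 120.5 to 125.8 in WT SPOP. Over the genes tested, the Pearson correlation was 0.9937 between the F102C arrays, 0.9943 to 0.9945 within WT SPOP, and 0.9889 to 0.9912 between the groups. Of 15 prostate luminal markers with a named probe, 14 were detected on all 12 arrays, and KLK3 on 10. The summed luminal level was 14.95 to 14.97 in F102C and 14.95 to 14.98 in WT SPOP on the log2 scale. The sums cover tested genes only. The neuroendocrine sum, of ENO2 and INSM1 alone, was 9.03 to 9.10 in F102C and 8.71 to 8.90 in WT SPOP, without overlap. INSM1 was above background on 0 F102C arrays and 2 WT SPOP arrays, and the part of this sum in the results was not tested. The basal sum is VIM alone, the fibroblast sum ACTA2 alone and the immune sum 4 genes, and each overlapped between the groups. None of these small sums reads a whole lineage. Of the other lineages, 6 of 8 basal, 5 of 9 neuroendocrine, 9 of 12 fibroblast and 5 of 11 immune markers were detected on no array. No basal, neuroendocrine, fibroblast or immune marker that could be tested was called between F102C and WT SPOP. These are bulk samples, in which fewer cells of a kind and less RNA per cell cannot be told apart.

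Expression differed between the mutant and the wild type at 385 of 12227 genes (3.15% called), 206 higher (1.68% of genes tested) and 179 lower (1.46%) in SPOP F102C. A gene was called where its Benjamini-Hochberg adjusted p was under 0.05 in limma's moderated test, fitted on all 12 arrays. Levels below are neqc log2 intensities, and changes are log2 fold changes of F102C minus WT SPOP with their standard error. The changes were modest in size: the median absolute log2 change of called genes was 0.646, and 33 genes passed 2-fold, 18 higher and 15 lower. At every one of the 385 called genes the F102C and WT SPOP arrays did not overlap. Over all genes, the F102C arrays lay above all WT SPOP arrays at 19.3% of genes and below all of them at 19.5%. At an unadjusted p under 0.05 there were 2238 genes, 18.3% of those tested.

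**Figure D1:**
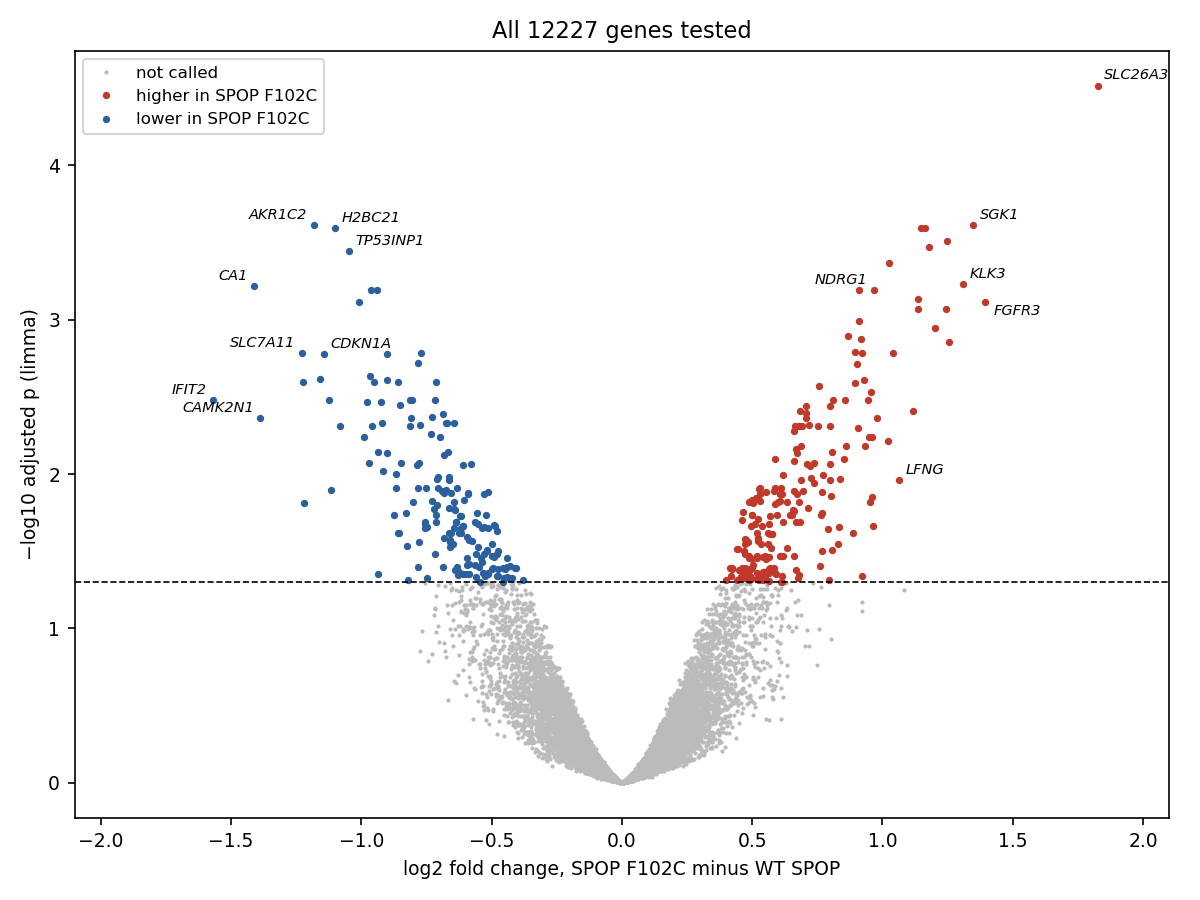
Log2 fold change of SPOP F102C minus WT SPOP (x axis) against −log10 of the limma adjusted p (y axis) for all 12227 genes tested; the dashed line marks an adjusted p of 0.05. The 206 red points are called higher and the 179 blue points called lower in SPOP F102C, with SLC26A3 farthest right and IFIT2 farthest left.

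With F102C array 1 left out 74 genes were called, with F102C array 2 left out 94, and without 1 WT SPOP array between 173 and 240. Scaling the arrays to equal medians of all probes gave 67 genes higher and 345 lower, with the median of all genes at -0.128. Under that scaling all 385 genes kept their direction. Leaving out 1 array could not reverse a direction, since the 2 groups did not overlap at any called gene. Fold changes also depend on the scale: in the values the authors deposited, the called genes' changes were smaller, by a median ratio of 1.84, and by 3.99 for genes of mean level under 7.

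SPOP itself read 10.15 and 10.00 in F102C, against 10.21, 10.01 and 10.18 in WT SPOP. The groups overlapped, the change was -0.06 ± 0.11 (adjusted p = 0.841, limma), and control vector read 10.23, 10.15 and 10.17. The files do not say whether this probe lies in the part of the transcript that the construct carries, so the value checks neither the label nor the amount of the expressed protein.

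The gene with the largest rise was SLC26A3, an anion exchanger that swaps chloride for bicarbonate. It read 7.3 and 7.33 in F102C, against 5.67, 5.33 and 5.46 in WT SPOP and 6.28, 6.20 and 6.37 in control vector. Both mutant arrays stood above every wild-type and every control array, and the change was 1.83 ± 0.11 (adjusted p = 3.06e-05, limma). CA1 and CA2, carbonic anhydrase genes on the same list of bicarbonate and chloride handling genes, fell. CA1, which hydrates carbon dioxide to bicarbonate, read 5.53 and 5.44 in F102C, against 6.92, 6.71 and 7.05 in WT SPOP, and changed by -1.41 ± 0.14 (adjusted p = 0.000607). CA2, another such enzyme, was not above background on either F102C array and was detected on 2 of 3 WT SPOP arrays, which stood at least 1.12-fold higher (adjusted p = 0.0266, measured means 4.57 in F102C and 5.15 in WT SPOP). In control vector CA1 was not above background on any array, so F102C stood at least 1.44-fold above it while remaining below WT SPOP. The CA2 call was lost in 4 of the 12 fits without 1 array (either F102C array, WT SPOP array 2 or 3, at most adjusted p = 0.182) and in 6 of 9 other settings. Of the 13 genes tested from this list, 1 rose and 2 fell, with a median of 0.27, against 1.68% of all genes higher and 1.46% lower. This list and those below were chosen with earlier results of these data known. Their counts beside the shares of all genes are therefore descriptions and not tests.

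**Figure D2:**
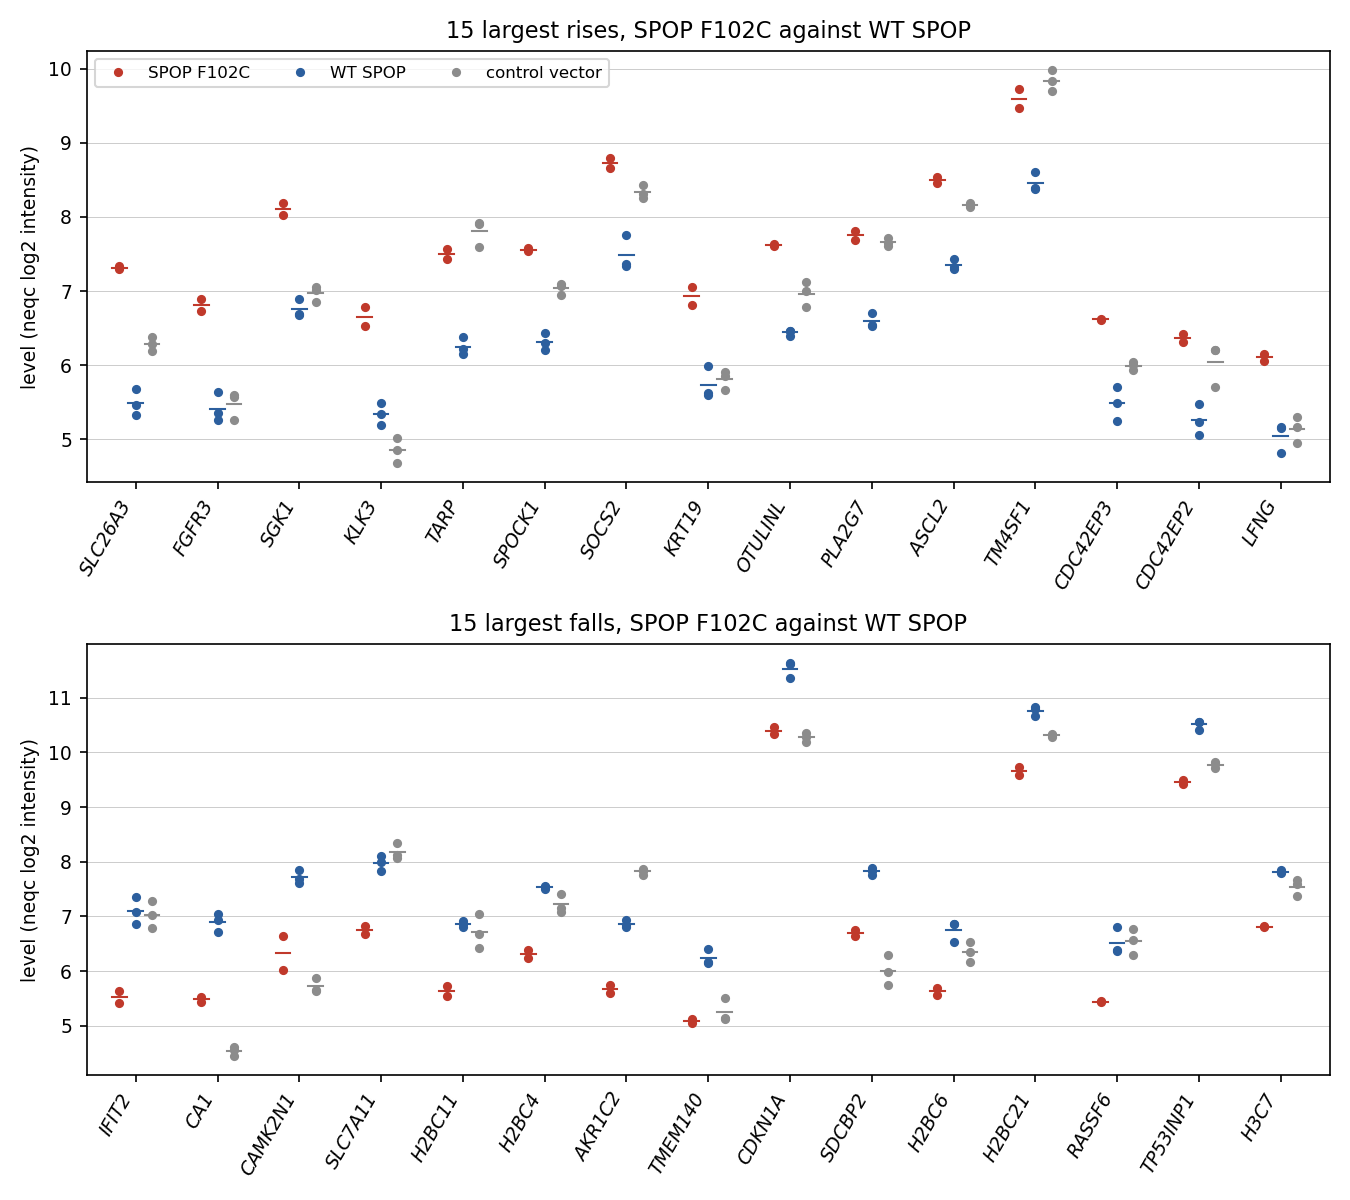
Levels (neqc log2 intensity, y axis) of the genes with the 15 largest rises (upper panel) and the 15 largest falls (lower panel) in SPOP F102C against WT SPOP; each point is 1 array and each dash a group mean, with SPOP F102C left, WT SPOP in the middle and control vector right. The 30 genes were chosen among called genes without overlap, so the 2 red and 3 blue points are separate by that rule. The grey control points lie near the mutant for some genes (CDKN1A, PLA2G7) and near the wild type for others (FGFR3, IFIT2). For a few (KLK3, AKR1C2) they lie beyond either.

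Androgen-induced genes were among the rises. Of 31 tested, 10 rose and 0 fell, against 1.68% and 1.46% of all genes, and the list's median change was 0.37 against 0.00 over all genes. KLK3, which encodes prostate-specific antigen and is a classical androgen-induced gene, rose by 1.31 ± 0.13 (adjusted p = 0.000589, limma). It read 6.78 and 6.53 in F102C, against 5.20, 5.49 and 5.35 in WT SPOP and 4.68, 4.85 and 5.02 in control vector. The 3 groups were ordered F102C, WT SPOP, control vector without overlap, although KLK3 is dim here and was above background on only 1 control array. NDRG1, a stress-responsive gene also induced by hypoxia, read 11.36 and 11.20 in F102C, against 10.22, 10.32 and 10.40 in WT SPOP, a change of 0.97 ± 0.10 (adjusted p = 0.000648). EAF2, a transcription elongation factor partner, read 8.17 and 8.28 in F102C, against 7.41, 7.37 and 7.17 in WT SPOP, a change of 0.91 ± 0.10 (adjusted p = 0.00102). FKBP5, the co-chaperone that both androgens and glucocorticoids induce, read 10.59 and 10.72 in F102C, against 9.94, 9.87 and 9.89 in WT SPOP. Its change was 0.76 ± 0.10 (adjusted p = 0.00271). None of these 4 genes overlapped between F102C and WT SPOP. Control vector read 10.68, 10.64 and 10.51 for NDRG1, 7.93, 7.99 and 7.84 for EAF2, and 10.52, 10.48 and 10.50 for FKBP5. At these genes every control array lay above every WT SPOP array. The mutant did not pass the test against control vector at FKBP5 and EAF2 (adjusted p = 0.499 and 0.15, limma). At KLK3 and NDRG1 it was higher than control vector (adjusted p = 1.3e-05 and 0.00322).

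The cation channel gene TRPM8 rose by 0.98, the TGF-beta feedback gene PMEPA1 by 0.75, the prostaglandin receptor gene PTGER4 by 0.74 and the transporter gene ABCC4 by 0.68. PLPP1, a lipid phosphatase gene, rose by 0.46 and CENPN, a kinetochore gene, by 0.50. Other prostate proteases moved less: the change of KLK2 was 0.47 ± 0.14 (adjusted p = 0.0909) and that of TMPRSS2, a transmembrane serine protease gene, 0.20 ± 0.11 (adjusted p = 0.358), neither of which passed the test. KLK2 nonetheless read 6.92 and 6.90 in F102C, above the 6.52, 6.44 and 6.37 of WT SPOP. Not every androgen-induced gene was highest in the mutant: PMEPA1 read 7.94 and 7.93 in F102C and 7.19, 7.16 and 7.20 in WT SPOP, while control vector reached 8.89, 8.78 and 8.99. Against control vector, 8 of the 31 genes were higher and 2 were lower in F102C, with PMEPA1 and PTGER4 the lower ones (backgrounds of 1.88% and 1.96%). Without F102C array 1 or 2, 4 and 5 androgen-induced genes rose, and with equal medians of all probes 4 rose and 1 fell, FKBP5 missing the threshold there.

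Of 14 androgen-repressed genes tested, 6 fell and 0 rose, with a median change of -0.39, against 1.46% of all genes lower and 1.68% higher. Against control vector, which shares the F102C arrays, 4 of the 14 were higher and 2 lower in F102C, with a median of -0.06. Of all genes, 1.88% were higher and 1.96% lower there. CAMK2N1, an inhibitor of calcium/calmodulin-dependent kinase II, read 6.64 and 6.01 in F102C, against 7.61, 7.69 and 7.85 in WT SPOP, and changed by -1.39 ± 0.21 (adjusted p = 0.00434, limma). Control vector read 5.66, 5.87 and 5.63, below both F102C arrays, though that difference did not pass the test (adjusted p = 0.149). SERPINI1, the serine protease inhibitor neuroserpin, read 8.19 and 8.21 in F102C, against 8.93, 8.85 and 8.87 in WT SPOP. It changed by -0.69 ± 0.10 (adjusted p = 0.00407), but control vector read only 6.53, 6.49 and 6.55, so the mutant lay between the other groups. DDC, dopa decarboxylase, read 11.11 and 10.98 in F102C, against 11.57, 11.70 and 11.61 in WT SPOP (-0.58 ± 0.10, adjusted p = 0.00866). For DDC control vector read 11.02, 11.04 and 11.09, overlapping F102C. The glucuronidating enzymes UGT2B15 and UGT2B17, which inactivate androgens, changed by -0.54 (adjusted p = 0.0349) and -0.46 (adjusted p = 0.0497). Another UGT2B15 probe gave 0.13, in the opposite direction, and the UGT2B genes are near-identical copies whose probes may share targets. The butyrylcholinesterase gene BCHE (adjusted p = 0.0466) was the other gene called lower. With F102C array 1 or array 2 left out, 1 androgen-repressed gene was called each time, and the CAMK2N1 call was lost without F102C array 2 (adjusted p = 0.0613). SERPINI1 lost its call without F102C array 1 (adjusted p = 0.0563), DDC without either F102C array (at most adjusted p = 0.0991), and UGT2B15 and UGT2B17 in 7 and 11 of the 12 fits without 1 array.

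SGK1, a kinase gene induced by glucocorticoids and androgens, read 8.19 and 8.02 in F102C, against 6.70, 6.89 and 6.68 in WT SPOP. It rose by 1.35 ± 0.11 (adjusted p = 0.000245, limma), and the other SGK1 probes gave 1.47 and 1.36. Of the 14 genes induced by both androgens and glucocorticoids, 2 rose (SGK1 and FKBP5) and 0 fell, with a median of 0.16 (background 1.68% and 1.46%). ZBTB16, a zinc finger gene, changed by 0.44 (adjusted p = 0.0749) and NFKBIA, the NF-kB inhibitor, by 0.34 (adjusted p = 0.173). The luminal marker list gave 3 rises and 0 falls of 15 (background 1.68% and 1.46%), and the same count without any 1 of the 5 arrays compared. Beside KLK3 these were the keratin gene KRT19 and ACP3, which encodes prostatic acid phosphatase. KRT19 read 7.05 and 6.82 in F102C, against 5.63, 5.99 and 5.59 in WT SPOP (1.20 ± 0.14, adjusted p = 0.00114). ACP3 read 7.99 and 8.04 in F102C, against 7.08, 7.07 and 7.20 in WT SPOP (0.90 ± 0.12, adjusted p = 0.00195). The pioneer factor FOXA1 read 12.18 and 12.23 in F102C and 12.27, 12.32 and 12.37 in WT SPOP, a change of -0.11 ± 0.10 (adjusted p = 0.582).

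Fibroblast growth factor signalling genes, a list also chosen with earlier results known, gave 2 rises and 0 falls of 11 tested (background 1.68% and 1.46%). The count was the same without any 1 of the 5 arrays. FGFR3, a receptor tyrosine kinase gene, read 6.89 and 6.73 in F102C, against 5.35, 5.64 and 5.25 in WT SPOP, and rose by 1.40 ± 0.15 (adjusted p = 0.000772, limma). Its other probe gave 0.15 and was not called, so the rise rests on 1 of 2 FGFR3 probes. DUSP4, a phosphatase gene that dampens ERK signalling, read 6.38 and 6.51 in F102C, against 5.43, 5.49 and 5.29 in WT SPOP (1.04 ± 0.13, adjusted p = 0.00165). The feedback inhibitors SPRED1 (0.52, adjusted p = 0.165) and SPRY2 (0.39, adjusted p = 0.114) did not pass.

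The remaining large rises spanned several functions. TARP, the T-cell receptor gamma alternate reading frame transcript known from prostate epithelium, read 7.44 and 7.57 in F102C, against 6.14, 6.22 and 6.39 in WT SPOP and 7.59, 7.90 and 7.92 in control vector. SOCS2, a suppressor of cytokine signalling, read 8.79 and 8.67 in F102C, against 7.75, 7.34 and 7.37 in WT SPOP and 8.31, 8.43 and 8.26 in control vector. TM4SF1, a tetraspan surface protein gene, read 9.73 and 9.47 in F102C, against 8.38, 8.61 and 8.39 in WT SPOP and 9.98, 9.70 and 9.83 in control vector. At TARP, SOCS2 and TM4SF1 the wild-type arrays were the lowest of the 3 groups, and the mutant did not differ from control vector in the test (adjusted p = 0.353, 0.158 and 0.369, limma). PLA2G7, the platelet-activating factor acetylhydrolase gene, had the same order, with a rise of 1.17 over WT SPOP and a change of 0.10 from control vector (adjusted p = 0.705). The proteoglycan gene SPOCK1 rose by 1.25, OTULINL by 1.18, the transcription factor gene ASCL2 by 1.15, the Notch-modifying LFNG by 1.06, and the Cdc42 effector genes CDC42EP3 and CDC42EP2 by 1.14 and 1.12. CDC42EP2 lost its call without F102C array 1 (adjusted p = 0.0563), and LFNG lost it without either F102C array (at most adjusted p = 0.108) and with the mean of its probes (adjusted p = 0.103), its other probe giving 0.18.

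Replication-dependent histone genes formed the group with the lowest median, -0.78, among the lists described. These genes encode the histones packaged onto new DNA in S phase, and their messages normally end in a stem-loop in place of a poly(A) tail. Of 27 tested, 15 fell and 0 rose, against 1.46% and 1.68% of all genes. On 21 of the 27 the F102C arrays lay below all WT SPOP arrays, against 19.5% of all genes. The falls included 5 of 8 H2A genes, 5 of 10 H2B genes, 2 of 3 H3 genes, 2 of 5 H4 genes and the linker histone gene H1-2. H2BC21 read 9.59 and 9.73 in F102C, against 10.82, 10.80 and 10.66 in WT SPOP and 10.34, 10.28 and 10.32 in control vector. It changed by -1.10 ± 0.10 (adjusted p = 0.000256, limma), with the mutant lowest and the wild type highest of the 3 groups. H2AC18 read 10.79 and 10.70 in F102C, against 11.71, 11.69 and 11.72 in WT SPOP (-0.96 ± 0.10, adjusted p = 0.000648). H3C7 read 6.82 and 6.81 in F102C, against 7.81, 7.80 and 7.84 in WT SPOP (-1.01 ± 0.11, adjusted p = 0.000772). H2AC6 read 7.79 and 7.80 in F102C, against 8.63, 8.74 and 8.83 in WT SPOP (-0.94 ± 0.10, adjusted p = 0.000648). No array of one group reached the other at any of these 4 genes.

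Against control vector, 11 of the 27 histone genes were also lower in the mutant and 0 were higher, with a median of -0.38. Of all genes, 1.96% were lower and 1.88% higher in that comparison. H2BC11 changed by -1.22 ± 0.16 from WT SPOP (adjusted p = 0.00254) and by -1.08 from control vector (adjusted p = 0.00332, limma). Without 1 F102C array, 9 or 12 of the 27 were called lower than WT SPOP, and without 1 WT SPOP array 12 to 15. H2BC4 and H2BC6 lost their calls without either F102C array or WT SPOP array 1 (at most adjusted p = 0.145 and 0.104). Many histone genes are near-identical copies, so probes may read more than the gene they are named for. The labelling kit primes from poly(A) tails, a step that passes over messages without one, and whether tail length differed between groups was not tested.

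The H2B genes share a promoter element, the octamer ATTTGCAT bound by OCT1, and stretches around it are shown for the 4 H2B genes that fell and hold it. They come from the RefSeq promoter table (build GRCh38.p14, from 250 bases before to 50 after the start), read 5′ to 3′ on the gene's strand, with the octamer in capitals.
H2BC4, chr6:26124012-26124079, minus strand: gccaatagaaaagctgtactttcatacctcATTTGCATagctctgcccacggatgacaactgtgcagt
H2BC6, chr6:26183623-26183690, plus strand: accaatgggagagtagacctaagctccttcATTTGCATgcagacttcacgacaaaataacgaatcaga
H2BC11, chr6:27132805-27132872, minus strand: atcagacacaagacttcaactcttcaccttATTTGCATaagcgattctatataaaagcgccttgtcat
H2BC21, chr1:149886691-149886758, minus strand: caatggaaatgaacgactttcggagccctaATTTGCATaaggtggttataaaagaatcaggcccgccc

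Searched on both strands, the octamer occurred in 8 of the 10 H2B genes tested, in 6 of the 15 other histone genes found in the table, and in 2.19% of its 27305 genes (1.77% of its 35116 promoters). It was in 4 of the 5 H2B genes that fell and in 4 of the 5 that did not pass the test. H2BC4 and H2AC6 are transcribed away from each other, and their promoter windows overlap by 255 bases, so the H2BC4 stretch lies before H2AC6 as well. Both neighbours fell, by 1.22 and 0.94 on the log2 scale.

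DNA replication genes act in the same phase of the cell cycle as the histone genes. Of 36 G1/S genes, 3 rose and 0 fell, against 1.68% and 1.46% of all genes. The authors' deposited values gave 12 rises, equal medians of all probes 1 and the replicate block 0. The median change was 0.31, and on 27 of them the F102C arrays lay above all WT SPOP arrays (background 19.3%). CDT1, the replication licensing factor gene, read 8.49 and 8.47 in F102C, against 7.52, 7.54 and 7.50 in WT SPOP and 8.68, 8.35 and 7.98 in control vector (0.96 ± 0.18, adjusted p = 0.014, limma). UNG, the uracil-DNA glycosylase gene, changed by 0.66 (adjusted p = 0.0174) and UHRF1, which maintains DNA methylation, by 0.48 (adjusted p = 0.0269). Against control vector the list's median was -0.03 with 0 called either way, where 3.84% of all genes were called. The median level of the 36 genes was 9.43 and 9.29 in F102C, against 8.99, 9.06 and 9.10 in WT SPOP and 9.48, 9.44 and 9.38 in control vector. Without F102C array 1, or any 1 WT SPOP array, there was 1 call and without F102C array 2 there were 0, and the other UNG probes gave 0.23 and 0.07. CDT1 also lost its call without WT SPOP array 1 (at most adjusted p = 0.119 over these fits). Of 32 G2/M genes none was called (median 0.01), against 3.15% of all genes. Of 23 double-strand break repair genes XRCC5, a Ku subunit gene, alone was (0.47, adjusted p = 0.0414), which is near that share. Its call was lost in 9 of the 12 fits that leave out 1 array.

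**Figure D3:**
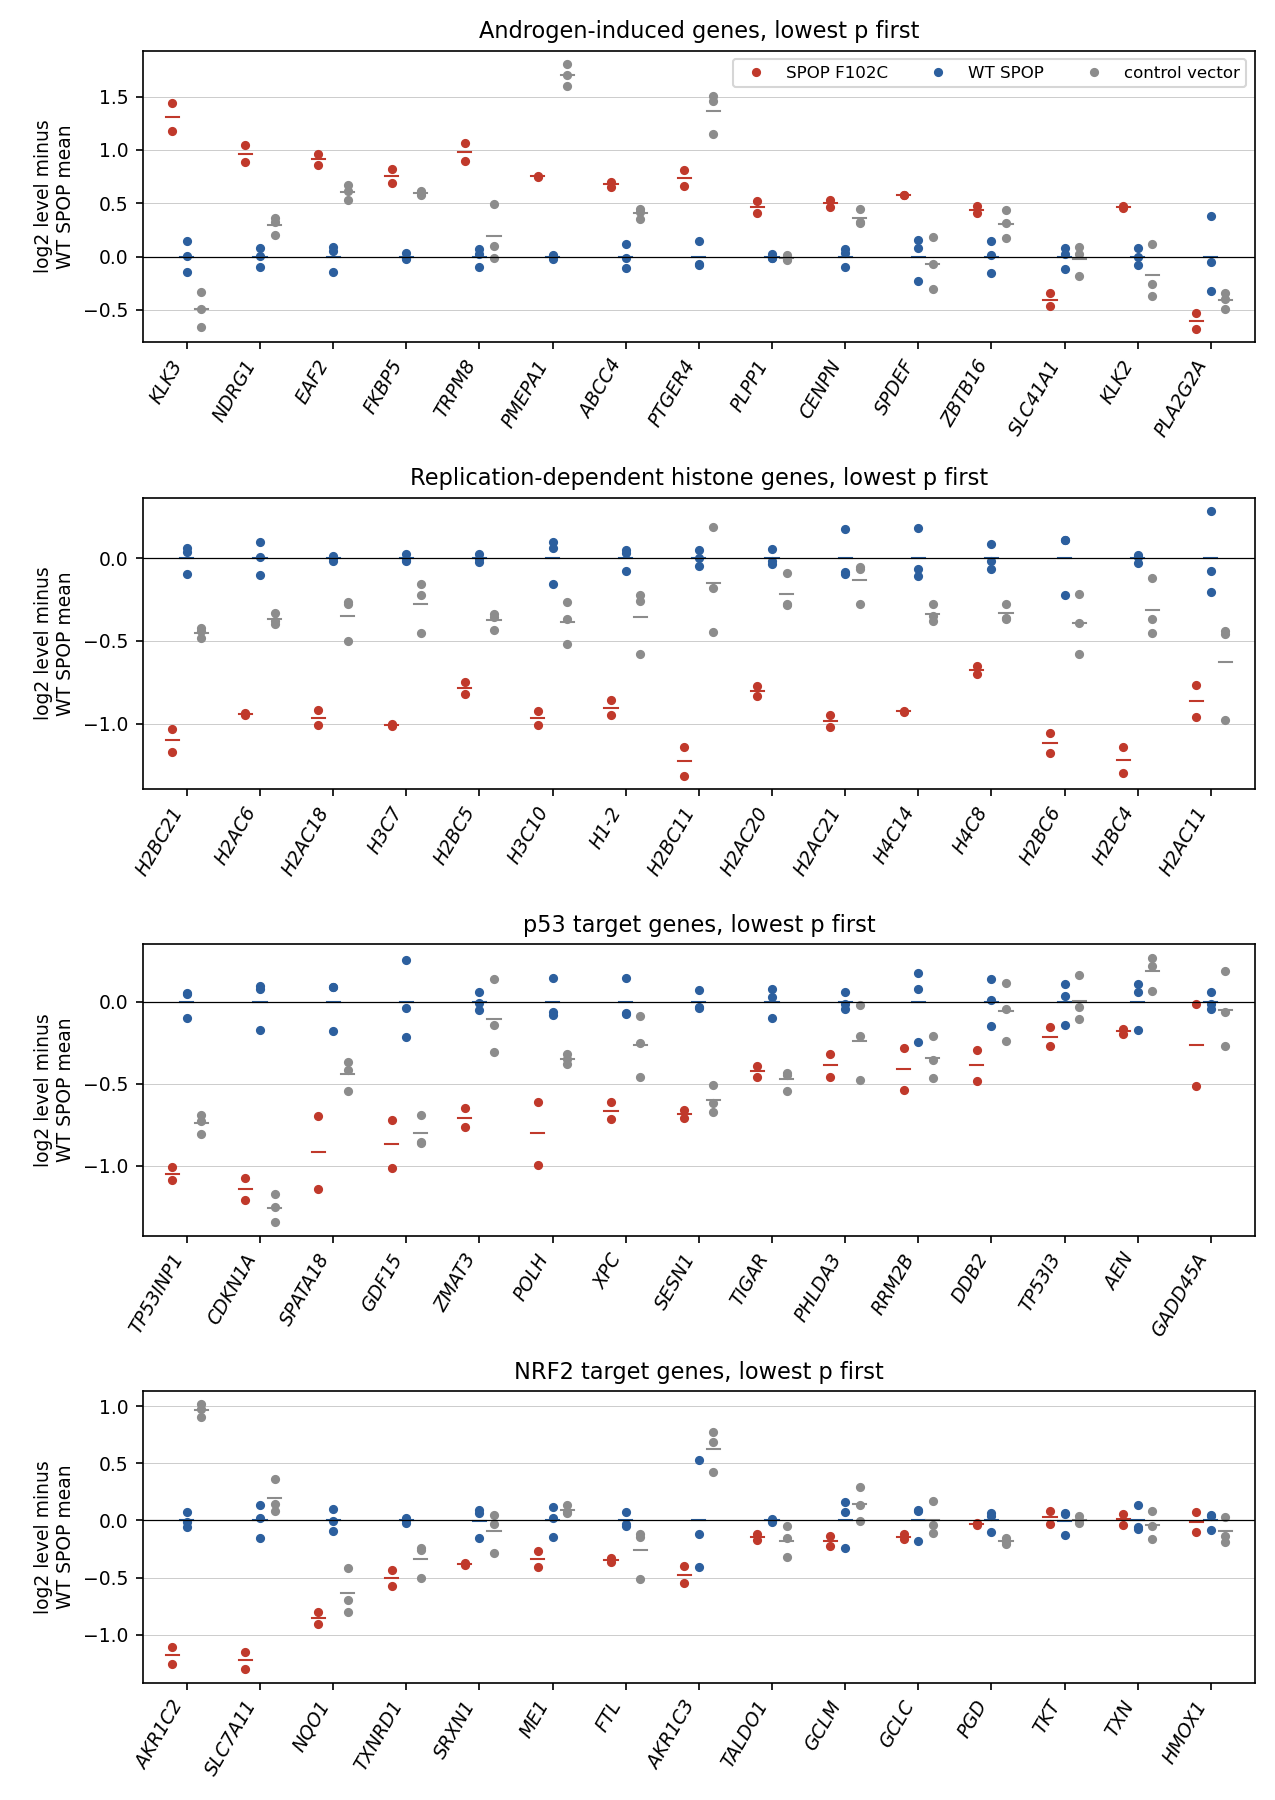
Log2 level of each array minus the WT SPOP mean (y axis) for the 15 members of lowest p of 4 gene lists; red points are SPOP F102C (left), blue WT SPOP (middle) and grey control vector (right), with dashes at group means. The 15 histone genes shown are the 15 of 27 that were called, all of them lower. The mutant lies below the wild type at each by that choice, while of all 27 tested 4 had a change above 0. At the p53 targets CDKN1A, GDF15 and SESN1 mutant and control lie together below the wild type.

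Of 21 p53 target genes tested, 8 fell and 0 rose, with a median of -0.39, against 1.46% of all genes lower and 1.68% higher. CDKN1A, which encodes the cell cycle inhibitor p21, read 10.46 and 10.33 in F102C, against 11.36, 11.63 and 11.61 in WT SPOP and 10.36, 10.29 and 10.19 in control vector. The change from WT SPOP was -1.14 ± 0.14 (adjusted p = 0.00168, limma), and that from control vector 0.11 ± 0.14 (adjusted p = 0.751). TP53INP1, a stress-induced nuclear protein gene, read 9.51 and 9.43 in F102C, against 10.56, 10.41 and 10.56 in WT SPOP and 9.78, 9.71 and 9.82 in control vector. It changed by -1.05 ± 0.10 (adjusted p = 0.000361), and another probe gave -0.99. GDF15, a secreted stress cytokine, read 8.31 and 8.02 in F102C, against 8.82, 9.0 and 9.29 in WT SPOP (-0.87 ± 0.16, adjusted p = 0.0124). The mitophagy gene SPATA18 changed by -0.92, the polymerase gene POLH by -0.80, ZMAT3 by -0.71, SESN1 by -0.69 and the repair gene XPC by -0.66. Of these 8, only ZMAT3 was also lower than in control vector (-0.60, adjusted p = 0.0219), where 1.96% of all genes were lower. MDM2 and BAX, common p53 targets, changed by -0.18 and 0.09 without passing. Without F102C array 1 or 2, 3 and 4 genes were called, GDF15 being lost without array 2 (adjusted p = 0.127) and SPATA18 without array 1 (adjusted p = 0.123).

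NRF2 targets, the antioxidant and detoxifying enzymes, gave 4 falls and 0 rises of 15, with a median of -0.34, against 1.46% of all genes lower and 1.68% higher. AKR1C2, an aldo-keto reductase that inactivates dihydrotestosterone, read 5.75 and 5.60 in F102C, against 6.93, 6.84 and 6.80 in WT SPOP and 7.76, 7.84 and 7.88 in control vector. It changed by -1.18 ± 0.10 from WT SPOP (adjusted p = 0.000245) and by -2.15 ± 0.10 from control vector (adjusted p = 1.84e-07, limma), the groups standing in 3 separate steps. SLC7A11, the cystine transporter gene, read 6.67 and 6.83 in F102C, against 8.0, 7.83 and 8.11 in WT SPOP and 8.12, 8.06 and 8.34 in control vector (-1.23 ± 0.15, adjusted p = 0.00165). NQO1, the quinone reductase gene, read 9.67 and 9.56 in F102C, against 10.46, 10.56 and 10.37 in WT SPOP (-0.85 ± 0.12, adjusted p = 0.00356), and lost its call without F102C array 2 (adjusted p = 0.0545). TXNRD1, thioredoxin reductase, was the fourth gene called (-0.50, adjusted p = 0.0414), a call lost in 6 of the 12 fits without 1 array. HMOX1 and GCLM, other classical NRF2 targets, changed by -0.01 and -0.18 without passing.

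Interferon-stimulated genes gave 5 falls and 0 rises of 34, with a median of -0.13, against 1.46% of all genes lower and 1.68% higher. IFIT2, which binds viral RNA, had the largest fall of all genes, reading 5.41 and 5.63 in F102C, against 6.85, 7.07 and 7.35 in WT SPOP and 7.02, 7.27 and 6.79 in control vector. It changed by -1.57 ± 0.22 (adjusted p = 0.00331, limma) and missed the threshold without F102C array 1 (adjusted p = 0.0556). TMEM140 read 5.04 and 5.11 in F102C, against 6.15, 6.40 and 6.17 in WT SPOP and 5.12, 5.50 and 5.14 in control vector (-1.16 ± 0.15, adjusted p = 0.00244). OASL was not above background on either F102C array, and WT SPOP stood at least 1.30-fold higher (adjusted p = 0.00845). Its measured means were 4.40 in F102C and 5.37 in WT SPOP. IFIT1 changed by -0.93 ± 0.22 (adjusted p = 0.0442) and TRIM21 by -0.48 (adjusted p = 0.0412), while ISG15 (-0.24), MX1 (0.12) and USP18 (-0.03) did not pass. Without F102C array 1 or 2, 1 and 2 genes of the list were called. OASL lost its call without either F102C array (at most adjusted p = 0.0784), and TRIM21 in 9 of the 12 fits without 1 array.

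The stretches below show the interferon-stimulated response element core (GAAA, any 2 bases, GAAA) in capitals, read on either strand, for IFIT1 and TMEM140, from the RefSeq promoter table (GRCh38.p14).
IFIT1, chr10:89392477-89392559, plus strand: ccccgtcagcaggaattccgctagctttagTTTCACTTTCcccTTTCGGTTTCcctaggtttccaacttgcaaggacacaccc
TMEM140, chr7:135147989-135148058, plus strand: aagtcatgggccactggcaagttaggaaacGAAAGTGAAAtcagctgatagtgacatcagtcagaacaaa

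The core was found in all 3 of the fallen genes with a promoter in the table and in 18 of 26 of those not called, against 4.38% of all genes in the table (3.57% of promoters). The hexamer AGAACA, the unit of the androgen response element, occurred in 4 of 8 androgen-induced genes that rose and in 2 of 16 of those not called, against 17.5% of all genes in the table (14.8% of promoters). KLK3 holds it in the stretch shown, in capitals.
KLK3, chr19:50854715-50854780, plus strand: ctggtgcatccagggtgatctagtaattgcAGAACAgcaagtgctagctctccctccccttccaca

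Other large falls were SDCBP2, a syntenin family gene, and RASSF6, a Ras association domain gene. SDCBP2 read 6.75 and 6.65 in F102C, against 7.76, 7.89 and 7.83 in WT SPOP and 6.30, 5.75 and 5.98 in control vector. Against control vector SDCBP2 was higher in F102C (0.69, adjusted p = 0.0313, limma), while RASSF6 was lower (-1.10, adjusted p = 0.00302). RASSF6 read 5.45 and 5.43 in F102C, against 6.81, 6.39 and 6.37 in WT SPOP, and lost its call without either F102C array (at most adjusted p = 0.0592).

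Hypoxia-responsive and glycolytic genes gave 6 rises and 1 fall of 26, with a median of 0.13, against 1.68% of all genes higher and 1.46% lower. Beside NDRG1, the glucose transporter gene SLC2A1 read 8.74 and 8.81 in F102C, against 7.89, 8.08 and 8.27 in WT SPOP and 8.45, 8.56 and 8.70 in control vector (0.69 ± 0.13, adjusted p = 0.0129, limma). PFKFB3, which drives glycolysis through fructose bisphosphate, read 8.13 and 8.11 in F102C, against 7.45, 7.51 and 7.38 in WT SPOP (0.67 ± 0.12, adjusted p = 0.0135), while its other probe gave 0.00. The glucose transporter gene SLC2A3, the aldolase gene ALDOC and the phosphofructokinase gene PFKP were the other rises, and INSIG2, a sterol sensor gene, the fall (-0.50, adjusted p = 0.0283). Without F102C array 1 or 2, 1 gene of the list was called higher each time. SLC2A1 lost its call without either F102C array (at most adjusted p = 0.105), PFKFB3 without either or without WT SPOP array 3 (at most adjusted p = 0.12), and INSIG2 in 4 of the 12 fits. The metallothionein MT1F rose by 0.56 (adjusted p = 0.0131) as the single call of 8 metallothionein and zinc exporter genes (background 1.68% and 1.46%). That call was lost without either F102C array (at most adjusted p = 0.148) and with equal medians of all probes (adjusted p = 0.281). VCX and VCX3B, testis-specific genes with near-identical copies, rose by 0.96 and 1.02 over WT SPOP but changed by -1.73 and -1.81 from control vector. The VCX call was lost without either F102C array (at most adjusted p = 0.066) and that of VCX3B without F102C array 1 (adjusted p = 0.0900).

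**Figure D4:**
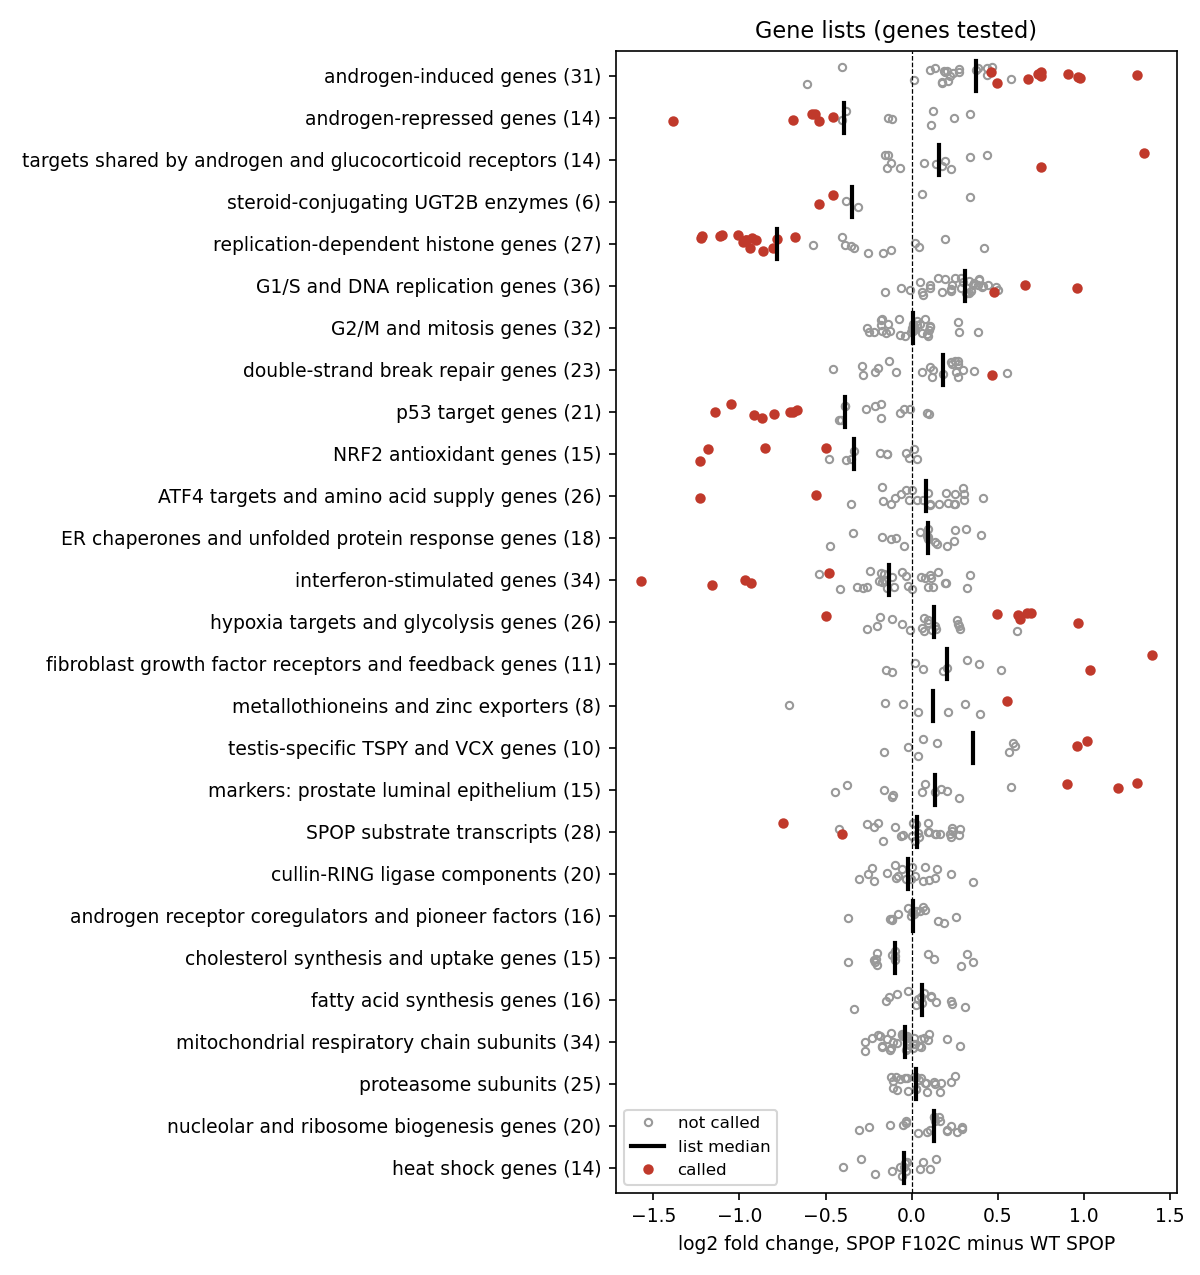
Log2 fold change of SPOP F102C minus WT SPOP (x axis) for each gene of 27 lists (rows, with the number tested); filled red points are called, open points are not, the black bar is the list's median and the dashed line the median of all genes. Histone, p53, NRF2 and androgen-repressed genes lie mostly left of 0, androgen-induced and G1/S genes mostly right, and the substrate, ligase and housekeeping lists are centred near 0.

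Among transcripts of the ligase's parts and targets, 7.14% of known substrates and 0% of cullin-RING ligase genes were called, against 3.15% of all genes. Of 28 known SPOP substrates tested, 0 rose and 2 fell, with a median of 0.03 (background 1.68% and 1.46%). BRD2, a bromodomain gene, read 10.72 and 10.79 in F102C, against 11.17, 11.10 and 11.21 in WT SPOP (-0.41 ± 0.09, adjusted p = 0.0408, limma). SCAF1, a splicing-related gene, changed by -0.75 (adjusted p = 0.047). These calls were lost in 8 and 10 of the 12 fits without 1 array. TRIM24 read 8.07 and 8.30 in F102C and 8.31, 8.01 and 8.14 in WT SPOP, a change of 0.03 ± 0.14 (adjusted p = 0.94). Of 20 cullin-RING ligase genes and of 16 steroid receptor coregulator genes, none was called, with medians of -0.02 and 0.01. At the share of all genes called, 3.15%, lists this small would give few calls or none. The arrays measure RNA, so they say nothing of the substrates' protein levels. NCOA3 was not analysed here, since no probe carries its symbol alone. Respiratory chain (34 genes), proteasome (25), nucleolar (20), ER chaperone (18), fatty acid (16), cholesterol (15), heat shock (14), immediate-early (11) and NF-kB (6) genes gave no calls either, with medians between -0.10 and 0.13. The same limit of list size holds for each of them, against 3.15% of all genes called. ATF4 targets gave 2 falls and 0 rises of 26, against 1.46% of all genes lower and 1.68% higher. The falls were SLC7A11 and DDIT4, the second lost in 5 of the 12 fits without 1 array.

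Against control vector, cells with SPOP F102C differed at 470 genes (3.84% called), 230 higher (1.88%) and 240 lower (1.96%), 83 of them by over 2-fold. This comparison shares the F102C arrays with the one above. The F102C arrays lay above all control arrays at 17.9% of genes and below all of them at 17.4%. The 5 largest rises by the fitted change were the testis-specific TSPY2 (3.95), TSPY8 (3.47) and TSPY4 (2.56), then PLXDC2 and TLL1, which were not above background in control vector and stood at least 4.31-fold and 3.55-fold higher in F102C. The largest falls were the interferon-stimulated IFI44 (-4.57), the adrenergic receptor gene ADRA2A (-2.84), TMEFF2 (-2.83), TRIM49C (-2.21) and TRIM51 (-2.21). At none of these 10 genes did F102C pass the test against WT SPOP. IFI44 read 4.80 and 5.28 in F102C and 5.33, 5.55 and 5.49 in WT SPOP, against 9.72, 9.59 and 9.52 in control vector. IFI44 and ADRA2A were above background on only 1 F102C array each, TSPY4 on 1 control array and TSPY8 on 2. The sizes given for these genes are therefore not exact. Whether the probes of TSPY2, TSPY4 and TSPY8, genes of the same family, read separate transcripts was not tested.

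Set beside the 206 rises over WT SPOP, F102C was also higher than control vector at 61, lower at 7 and not past the test at 138. Of the 179 falls, F102C was lower than control vector at 61, higher at 4 and not past the test at 114. Examples not past the test against control vector are CDT1 and PLA2G7 among the rises and CDKN1A among the falls. KLK3, SGK1, SLC7A11 and H2BC11 are examples of genes that differed from both. A gene not past the test is not shown to be equal: for CDKN1A the 95% interval of F102C minus control vector ran from -0.20 to 0.43. The count of 470 was 161 and 165 without F102C array 1 or 2 and 268 without control array 3.

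The other mutants, F133V and F133L, change a different phenylalanine to valine or leucine, and F102C was tested directly against the mean of SPOP F133V and SPOP F133L. No gene was called of 12227 (0% called, limma), while 1204 (9.85%) had an unadjusted p under 0.05, and the lowest adjusted p was 0.0598, shared by DSE, SGK1 and IGSF5. The F102C arrays lay above all 4 F133 arrays at 9.93% of genes and below all of them at 7.04%. SGK1 read 8.19 and 8.02 in F102C, against 8.76 and 8.71 in F133V and 8.96 and 9.05 in F133L, a difference of -0.76 ± 0.10 (adjusted p = 0.0598). All F102C arrays lay below the F133 arrays and above the WT SPOP arrays. DSE, a dermatan sulfate epimerase gene, read 6.20 and 5.94 in F102C, against 4.78 and 5.05 in F133V, 5.36 and 5.36 in F133L, and 6.05, 5.99 and 6.10 in WT SPOP. There the F102C arrays overlapped the wild type, and DSE was not above background on either F133V array, so the size of its difference is not exact (adjusted p = 0.0598). IGSF5, an immunoglobulin superfamily gene, read 5.70 and 6.08 in F102C, against 4.67 and 4.92 in F133V, 4.82 and 5.15 in F133L, and 4.89, 4.99 and 4.95 in WT SPOP (adjusted p = 0.0598). It was above background on 0 F133V arrays, 1 F133L array and 1 WT SPOP array, so no size is given.

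**Figure D5:**
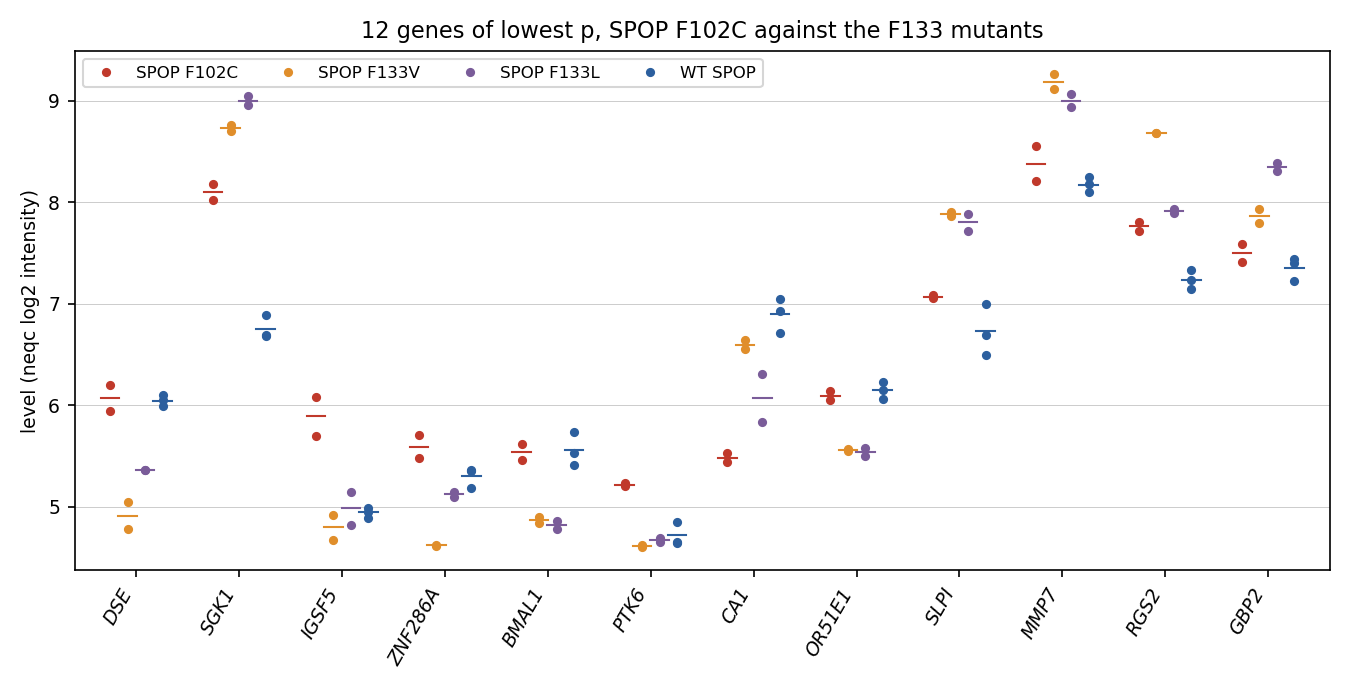
Levels (neqc log2 intensity, y axis) of the 12 genes of lowest p between SPOP F102C and the mean of the F133 mutants, none of which passed the test; each point is 1 array, dashes are group means, with F102C left, then F133V, F133L and WT SPOP. SGK1 and SLPI are lower in F102C than in either F133 mutant, while at DSE, BMAL1 and OR51E1 the F102C points overlap those of WT SPOP. DSE was not above background in F133V, nor BMAL1 in F133V or F133L.

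Genes called against WT SPOP were also set directly against the F133 mutants. For KLK3 the difference was -0.20 ± 0.13 (95% interval -0.47 to 0.08), for FGFR3 0.04 ± 0.14 (-0.28 to 0.36), for H2BC21 -0.09 ± 0.09 (-0.29 to 0.11) and for CDKN1A -0.19 ± 0.14 (-0.49 to 0.11). SLC26A3 read 7.3 and 7.33 in F102C, against 7.76 and 7.82 in F133V and 8.06 and 8.12 in F133L, a difference of -0.63 ± 0.11 (adjusted p = 0.0845). CA1 read 5.53 and 5.44 in F102C, against 6.64 and 6.55 in F133V and 6.31 and 5.84 in F133L, a difference of -0.85 ± 0.14 (adjusted p = 0.0804). The F102C arrays lay below all 4 F133 arrays at both genes. The F133 count was 4 with genes detected on at least 5 arrays, 5 with the mean of a gene's probes, 31 with a background offset of 50, 28 in the authors' deposited values and 38 with equal medians of all probes. DSE, SGK1, IGSF5 and ZNF286A made up the 4.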

How the data were processed

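Total RNA of 12 cultures was labelled with biotin and read on Illumina bead arrays. The authors deposited non-normalized probe intensities with a detection p-value for each probe and array, and processed values on a log2 scale made with lumi, per the submitters' processing notes; its version and settings were not given. Intensities were background-corrected, quantile-normalized and put on the log2 scale with neqc (offset 16) in limma 3.58.1 under R 4.3.3. Of 47323 probes, 23133 had a detection p under 0.05 on at least 2 arrays and were kept. The platform annotation gave 30113 probes 1 symbol, 8 several and 17202 none, 30074 matched a RefSeq gene ID, and no symbol needed updating. The brightest kept probe stood for its gene, which left 12227 genes.

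Groups were fitted as 5 means over all 12 arrays, leaving 7 residual degrees of freedom, with lmFit and eBayes, and p-values were Benjamini-Hochberg adjusted over all genes (called under 0.05). The code was tested on simulated data. The genes named were the 15 largest rises and falls against WT SPOP among called genes without overlap, the 5 largest each way in the other comparisons, up to 4 members of lowest p of each list, and a short fixed set that includes SPOP and KLK3. Further list members that were called, and genes singled out beside them, were chosen after their values were seen. The members and lists were chosen with earlier results of these data known. An "at least" fold sets a group's mean against the lowest signal of probes above background, or the dim probe's own where higher. Same-numbered arrays did not deviate together, so numbers were not taken as pairs. Chips could not be used as a block because the headers name none. Promoter sequences came from RefSeq (GRCh38.p14).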

Additional observations from a re-analysis of the deposited data

How the results depend on the processing

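Counts moved between alternatives. All 385 genes called between F102C and WT SPOP kept their direction under each alternative that tested them, except 1 gene with the mean of a gene's probes, and 376 were tested when detection on at least 5 arrays was required. Leaving out 1 array or fitting only the arrays compared could not reverse a direction, because F102C and WT SPOP did not overlap at any called gene. Those fits are therefore no check of direction. An offset of 50 gave 773 calls against WT SPOP (405 higher, 368 lower), 707 against control vector and 31 against the F133 mean. The authors' deposited values gave 895 (497 higher, 398 lower), 766 and 28. Equal medians of all probes gave 67 higher and 345 lower (16.3% higher, against 53.5%), 1013 against control vector and 38 against the F133 mean, with the median of all genes at -0.128, -0.232 and 0.212. Fitting only the arrays compared gave 252 calls, 123 of them higher. The F133 count was 4 with detection on at least 5 arrays and 5 with the mean of probes. The number of detected probes as a covariate gave 253 calls against control vector. Leaving out 1 array gave 74 to 381 calls against WT SPOP (40 to 196 higher, 34 to 187 lower), 161 to 482 against control vector and 0 to 0 against the F133 mean. The causes of these moves were not tested.

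With the replicate number as a block, 178 genes were called against WT SPOP (95 higher, 83 lower) and 249 against control vector. The labels do not say that a number pairs arrays, and deviations of same-numbered F102C and WT SPOP arrays correlated at -0.036 and -0.011. The chip as a block was not run, since the headers name no chips.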

Other observations

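Of 6619 kept probes without a single gene symbol, 22 were higher and 43 lower in F102C than in WT SPOP, 0.982% of them, at a limma adjusted p under 0.05 in a fit over probes. In the same fit 1.81% of the kept probes with a symbol were called. The probes without a single symbol were not used in the comparisons above.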
